A study of Mus musculus with 6 samples.

Results

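A set of 2750 open chromatin regions of splenic immature B cells lay in stretches of the mouse genome without protein-coding genes. Each region was overlapped by a peak, by at least 1 bp, in all 6 deposited ATAC-seq peak lists. Each was 400 to 2000 bp wide once the lists were merged, and its midpoint lay outside every protein-coding gene and more than 50 kb from either end of each of them. These regions, called distal regions here, made up 3.92% of the 70174 merged regions and 8.88% of the 30954 regions called in all 6 lists. Within the same width limits they were 9.38% of 29326. Of the 8114 merged regions over 50 kb from a protein-coding gene, 2896 (35.7%) were called in all 6 lists. Of those, 84 were left out as narrower than 400 bp and 62 as wider than 2000 bp. The regions were chosen by the presence of a peak in each library, so that presence is no finding and was not tested. The count rested on the distance limit, with 4284 regions at over 25 kb and 1508 at over 100 kb. It rested too on the peaks admitted, with 1684 regions once peaks under a −log10 q of 5 were dropped. That cut weighs unequally on the lists, whose −log10 q values differ in scale.

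Accessible DNA was tagged with a transposase that joins sequencing adapters to it (ATAC-seq) in B220+CD93+ immature B cells of the spleen. All 6 libraries came from Tcrd-GDL mice, a line in which the Tcrd gene drives a fluorescent protein, a diphtheria toxin receptor and a luciferase in γδ T cells, so the untreated mice carried the same allele as the injected ones. There were 3 untreated libraries and 3 libraries of mice given diphtheria toxin (DTx) intraperitoneally, 2 injections of 15 ng per g of body weight at an interval of 48 h, taken on day 8 after the first. The labels used here give no age. They do not say whether each library is a separate mouse, and the p-values then reflect only how these libraries spread, which may be technical. The loss of γδ T cells cannot be told apart from other effects of the toxin.

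Enhancers, the stretches of DNA that raise the transcription of genes on the same chromosome, often lie far from the genes they act on and are open in the cells that use them. Open chromatin far from protein-coding genes can also mark the start of a long non-coding RNA (lncRNA), a site bound by the looping factor CTCF, or a gene segment of an antigen receptor locus. Large gene-free stretches beside genes of transcription factors such as Myc, Mef2c and Foxo1 are known to hold enhancers of blood and immune cells.

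The lists held 36760 to 60811 peaks, and with no read totals in them the depth is unknown, so no counting interval is given. Untreated replicate 3 and DTx replicate 1 are laid out as lists of MACS2's narrow mode, and the other 4 as lists of its broad mode. The B cell markers Cd79a, Cd79b, Pax5, Ebf1, Cd93 and Ptprc each had a peak within 1 kb of a gene end in all 6 lists. Of 6 T cell markers, Cd3e, Trdc and Cd8a had none in any list, Cd3g had it in 1, Cd4 in 4 and Cd3d in 6. The NK markers Ncr1 and Klrb1c had none in any list. Of the myeloid markers Lyz2 had none, Csf1r had it in 4, Itgam in 5 and Cd68 in 6, and of the dendritic cell markers Itgax had none and Xcr1 and Siglech had it in 6. Of the erythroid markers Gata1 and Hba-a1 had none and Klf1 had it in 6. Of the stromal and endothelial markers Pecam1 had none, Cdh5 had it in 1, Pdgfrb in 4 and Col1a1 in 6. The part of other cell types in the results below was not tested.

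Some distal regions hold the start of a lncRNA gene, and 5 of those starts are printed because they lie in strongly called regions and show the kinds of letters that were searched for. Of the 2750 regions, 116 overlapped a lncRNA promoter window (250 bases before to 50 after the start, RefSeq, GRCm38.p6, the build of the lists) and 73 held a whole one. Each sequence reads 5′ to 3′ along the strand of its gene, with matches to the searched motifs in capitals. BC002059 starts at chr17:16951286-16951585 (+), with none of the motifs. Gm26901 starts at chr1:7398047-7398346 (-), with a CTCF core (CNAGGGGGC, here on the opposite strand). Mirt1 starts at chr19:53464747-53465046 (-), with an AP-1 site (TGANTCA), a PU.1 site (GAGGAAGT) and an E-box (CAGCTG). A630089N07Rik starts at chr16:98082390-98082689 (-), with the octamer (ATGCAAAT) read by Oct factors of B cells. Gm31342 starts at chr15:67039343-67039642 (+), with a CTCF core and an ETS site (CCGGAAGT).
BC002059: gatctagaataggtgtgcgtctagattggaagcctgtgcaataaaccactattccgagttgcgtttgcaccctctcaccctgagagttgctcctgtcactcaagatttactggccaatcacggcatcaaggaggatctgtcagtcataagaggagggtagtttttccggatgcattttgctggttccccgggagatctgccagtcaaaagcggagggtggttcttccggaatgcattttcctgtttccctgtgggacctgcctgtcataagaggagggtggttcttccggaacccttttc
Gm26901: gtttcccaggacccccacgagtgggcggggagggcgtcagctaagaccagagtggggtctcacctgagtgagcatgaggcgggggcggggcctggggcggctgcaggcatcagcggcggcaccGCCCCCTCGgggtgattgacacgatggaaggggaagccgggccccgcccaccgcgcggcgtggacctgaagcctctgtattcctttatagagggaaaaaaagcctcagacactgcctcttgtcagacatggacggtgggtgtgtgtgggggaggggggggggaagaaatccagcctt
Mirt1: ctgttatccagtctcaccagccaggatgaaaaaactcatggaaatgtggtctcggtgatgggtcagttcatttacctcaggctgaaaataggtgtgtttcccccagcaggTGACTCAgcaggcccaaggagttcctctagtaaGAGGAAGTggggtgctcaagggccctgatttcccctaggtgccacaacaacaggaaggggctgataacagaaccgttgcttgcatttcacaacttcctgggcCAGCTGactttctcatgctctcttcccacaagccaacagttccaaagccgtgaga
A630089N07Rik: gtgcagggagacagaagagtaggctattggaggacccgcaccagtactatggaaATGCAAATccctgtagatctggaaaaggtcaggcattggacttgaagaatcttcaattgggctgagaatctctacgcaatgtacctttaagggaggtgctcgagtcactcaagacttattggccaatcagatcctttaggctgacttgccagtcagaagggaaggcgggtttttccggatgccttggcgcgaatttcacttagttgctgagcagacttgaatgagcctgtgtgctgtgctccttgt
Gm31342: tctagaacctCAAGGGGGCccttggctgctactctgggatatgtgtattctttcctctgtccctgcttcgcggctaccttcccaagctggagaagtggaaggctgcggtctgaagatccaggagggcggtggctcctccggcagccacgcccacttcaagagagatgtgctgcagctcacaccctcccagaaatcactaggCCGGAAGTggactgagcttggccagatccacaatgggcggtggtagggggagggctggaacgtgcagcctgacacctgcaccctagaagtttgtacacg

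A search of 13 motifs on both strands of the 77 gene starts that lay whole inside a distal region, 1 window per gene, found PU.1 letters in 11 (14.3%). PU.1 is an ETS factor of B and myeloid cells. Its letters stood in 3.28% of all 27025 windows of the table, in 3.49% of the 9533 lncRNA windows and in 4.45% of the 1101 lncRNA windows inside other regions called in all 6 lists. The E-box stood in 18 of the 77 (23.4%, against 16.1% of all windows and 16.6% of the lncRNA windows in other shared regions), AP-1 in 10 (13.0%, against 7.93% and 5.36%) and RUNX (TGTGGTT) in 8 (10.4%, against 5.37% and 5.18%). Among all lncRNA windows the shares were closer, at 17.9% for the E-box, 9.49% for AP-1 and 6.36% for RUNX. The CTCF core stood in 4 (5.19%, against 2.78% of all windows), close to the 5.27% of the lncRNA windows in other shared regions. The ETS letters (CCGGAAGT) stood in 1 of the 77 (1.299%), against 4% of all windows and 10.2% of the 8082 protein-coding windows inside regions called in all 6 lists. ETS and PU.1 letters share the ending GGAAGT but cannot match at the same place. Windows inside distal regions had a median GC content of 51.3%, close to the 52.7% of all windows and below the 63% of lncRNA windows in other shared regions. EBF1 (TCCCNNGGG) and IRF (GAAANNGAA) each stood in 5 (6.49%), against 6.43% and 8.57% of all windows and 8.99% and 6.63% of the lncRNA windows in other shared regions. In the same order of comparison, KLF (GGGTGTGG) stood in 4 (5.19%, against 3.57% and 4.27%), FOXO (TGTTTAC) in 3 (3.90%, against 3.55% and 2.82%) and the octamer in 2 (2.60%, against 1.75% and 1.45%). NF-kB (GGGANTTTC) stood in 1 (1.299%, against 1.15% and 0.817%) and MEF2 (TATTTATAG) in 0 (against 0.466% and 0.545%). These shares are descriptions of letters, with no test, and no match says only that the letters are absent from the window.

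The 6 lists differ in length and mode, so strength was read from ranks. The list percentile of a region is the rank of its strongest peak's −log10 q among all peaks of that list. The shared-region percentile is its rank among the 30954 regions called in all 6 lists, which gives rankings of equal length. Distal regions ranged over nearly the whole scale of their lists. By the lowest of a region's 6 list percentiles, the median was 40.7, with quartiles of 21.2 and 62.6. That lowest value was 90 or more in 91 regions (3.31%), at least 50 in 1048 (38.1%) and under 10 in 285 (10.4%). The regions were 808 bp wide at the median and lay 110 kb from the nearest protein-coding gene, 158 of them over 500 kb and 46 over 1000 kb away.

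Distal regions were weaker than the other classes of shared region within the same width limits in every library. The classes were not matched on width, with medians of 808 bp for distal regions, 1067 bp for gene-end regions and 783 to 825.5 bp for the others, and its part in the differences was not tested. Their median shared-region percentile was 37.4, 34.8 and 33.4 in untreated libraries 1 to 3 and 37.9, 33.9 and 34.8 in the DTx libraries. Regions inside genes and over 10 kb from the gene's ends were the nearest class, at 39.2, 39.5 and 37.8 untreated and 40.2, 39.8 and 39.8 DTx. The distal regions lay -4.005 ± 1.62 percentile points from them (SD, n = 6 libraries, lower in 6 of 6, exact two-sided sign-flip permutation p = 0.03125). Against the 6563 other intergenic regions the difference was -6.95 ± 1.91 points, against 3986 regions inside genes at 1 to 10 kb from an end it was -11.9 ± 2.13, and against 8961 regions within 1 kb of a gene end it was -37.8 ± 2.70 (each SD, n = 6, lower in 6 of 6, the same exact permutation p, and 0.03125 after Benjamini-Hochberg adjustment over the 4 classes). That p is the smallest that 6 libraries allow, and with any library left out none of these tests can go below 0.0625. Both groups of libraries and both modes showed the same order of the classes.

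**Figure D1:**
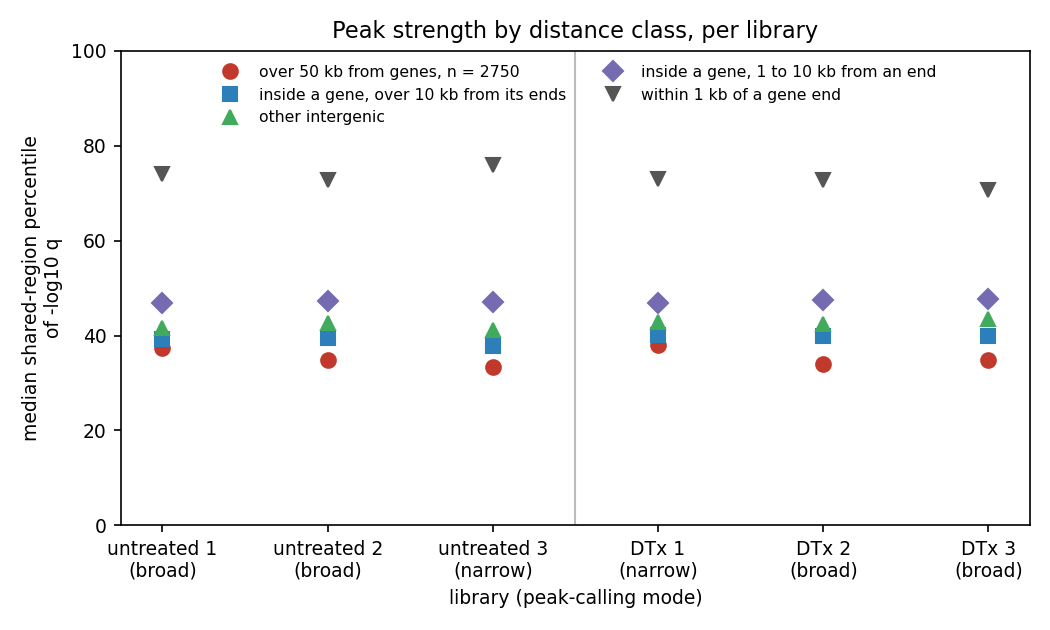
Median shared-region percentile of −log10 q (vertical axis) of 5 classes of region in each of the 6 libraries (horizontal axis, with the peak-calling mode), 1 point per class and library. The distal regions, between 33.4 and 37.9, are the lowest class in each library, and regions within 1 kb of a gene end, between 70.6 and 75.9, the highest.

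Percentiles by distance from genes were close to level up to 50 kb and lower beyond it. The mean percentile over the 6 libraries had a median of 42.6 in the 2781 intergenic regions at 1 to 10 kb from a gene, 40.5 at 10 to 25 kb and 41.05 at 25 to 50 kb. Past the 50 kb limit it was 36.5 at 50 to 100 kb, 35.2 at 100 to 200 kb, 30.1 at 200 to 500 kb and 27.0 in the 112 regions at 500 to 1000 kb. The 46 regions beyond 1000 kb stood at 30.6. Single libraries did not all follow this order: from 200 to 500 kb to 500 to 1000 kb the median went from 28.5 to 30.2 in untreated replicate 3, and from 100 to 200 kb to 200 to 500 kb from 37.4 to 37.7 in DTx replicate 1. The quartiles of neighbouring classes overlapped widely, and these are descriptions over regions, not tests. A region's own percentile moved by 19.2 points at the median between its lowest and highest library, close to the 19.1 points of other intergenic regions and above the 14.2 of gene-end regions, which sit nearer to the top of the scale. In 9 distal regions (0.327%) it moved by more than 50 points.

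**Figure D2:**
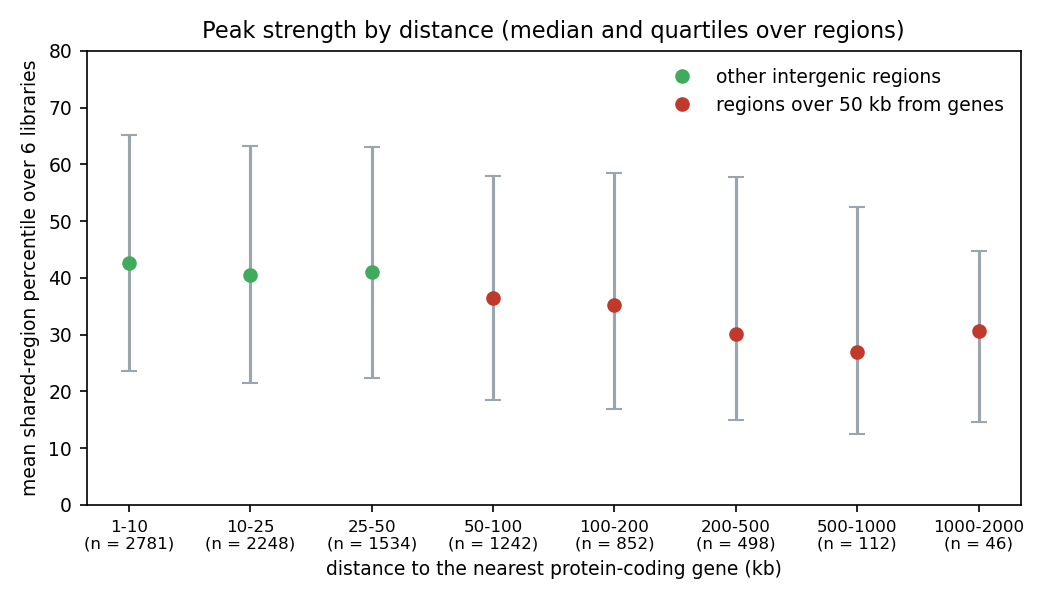
Mean shared-region percentile over the 6 libraries (vertical axis) by distance to the nearest protein-coding gene (horizontal axis, kb), as the median over regions with bars at the quartiles. Medians go from 42.6 at 1 to 10 kb to 27.0 at 500 to 1000 kb, and the bars of neighbouring classes overlap.

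The values beside the limits of the rule are given as a description. The nearest regions just inside the 50 kb limit, at 50.017 and 50.02 kb, had lowest list percentiles of 63.3 and 77.1, and those just outside, at 49.984 and 49.978 kb, had 60.9 and 79.5. At the lower width limit the regions of 401 bp stood at 31.6 and 40.7 and those of 399 bp at 17.5 and 13.8. At the upper limit regions of 2000 and 1999 bp stood at 91.8 and 21.4, and those of 2002 and 2006 bp at 21.1 and 87.2.

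The 12 strongest distal regions, by the lowest of the 6 list percentiles are named here with their flanking genes. The first by rank, chr2:98666245-98667393 between Lrrc4c and Iftap, stood at 99.9986 or above in each list, and chr2:98661571-98662813 beside it at 99.4 or above. This place is known for an excess of alignments in mm10, no exclusion list was applied here, and its part in these values was not tested. The pileup of the first was 52.7 to 106 times the median over distal regions of the same list, and that of the second 18.1 to 50.6 times. The strongest region elsewhere was chr10:96370716-96371446, which lies 246 kb from Btg1, an antiproliferative gene of resting lymphocytes, at the 99.9th, 99.9th and 99.6th list percentile untreated and the 99.7th, 99.8th and 99.9th DTx. Its pileup was 14.3 to 19.9 times that median.

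Beside transcription factor genes, chr17:52162218-52163410 lay 330 kb from Satb1, which encodes a chromatin organiser of lymphocytes. It stood at 99.3, 99.4 and 99.5 untreated and 99.5, 99.4 and 99.8 DTx. The region chr13:83065867-83066785 lay 438 kb from Mef2c, a factor of B cell survival and proliferation, at 99.8, 99.8 and 99.2 untreated and 99.0, 99.7 and 99.6 DTx. The region chr13:111935727-111936837 lay 118 kb from Map3k1, a kinase of the JNK pathway, at 98.7, 99.6 and 99.6 untreated and 99.4, 99.5 and 99.8 DTx. In none of these 3 did the groups separate. The regions that hold the starts of BC002059 and Gm26901, whose sequences are given above, were also among the 12, at 99.1 and 98.6 or above. The other regions were chrX:75673846-75674616 (Rab39b to Pls3), chr1:183979574-183980441 (Hhipl2 to 1700056E22Rik), chr3:19429648-19430804 (Pde7a to Dnajc5b) and chr3:5860346-5860819 (Pex2 to 1700008P02Rik), with lowest percentiles of 99.0, 99.0, 98.9 and 98.6.

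At the other end, chr3:133684185-133684986, 139 kb from Tet2, had the lowest percentile of all, 0.0993 in untreated replicate 1 and 4.78 to 16.7 in the other 5 lists. The next were chr17:81817992-81818580 near Slc8a1 and chr10:95615717-95617644 near Nudt4, each at 0.141 in DTx replicate 1. The region farthest from any protein-coding gene was chr5:59996447-59997057, in the gap between Pcdh7 and G6pd2, with 1812 kb to the nearer gene. It stood at 22.1, 31.6 and 19.2 untreated and 16.0, 23.4 and 16.4 DTx, in the lower part of each list.

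The distal regions were unevenly spread over the gene-free genome. There were 2967 gaps of over 100 kb between neighbouring protein-coding genes, with 1006 Mb in all in which a region could be distal, and 788 of the gaps (26.6%) held at least 1 region. The average was 2.73 regions per Mb. The 61 gaps with 10 regions or more held 890 regions, 32.4% of all, in 4.89% of that space. Among the fullest were Nmbr to Cited2 with 26, Eea1 to Btg1 with 25 (53.0 per Mb), Myc to Gsdmc with 24, Cetn3 to Mef2c with 23 and Foxo1 to Cog6 with 22 (41.4 per Mb).

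**Figure D3:**
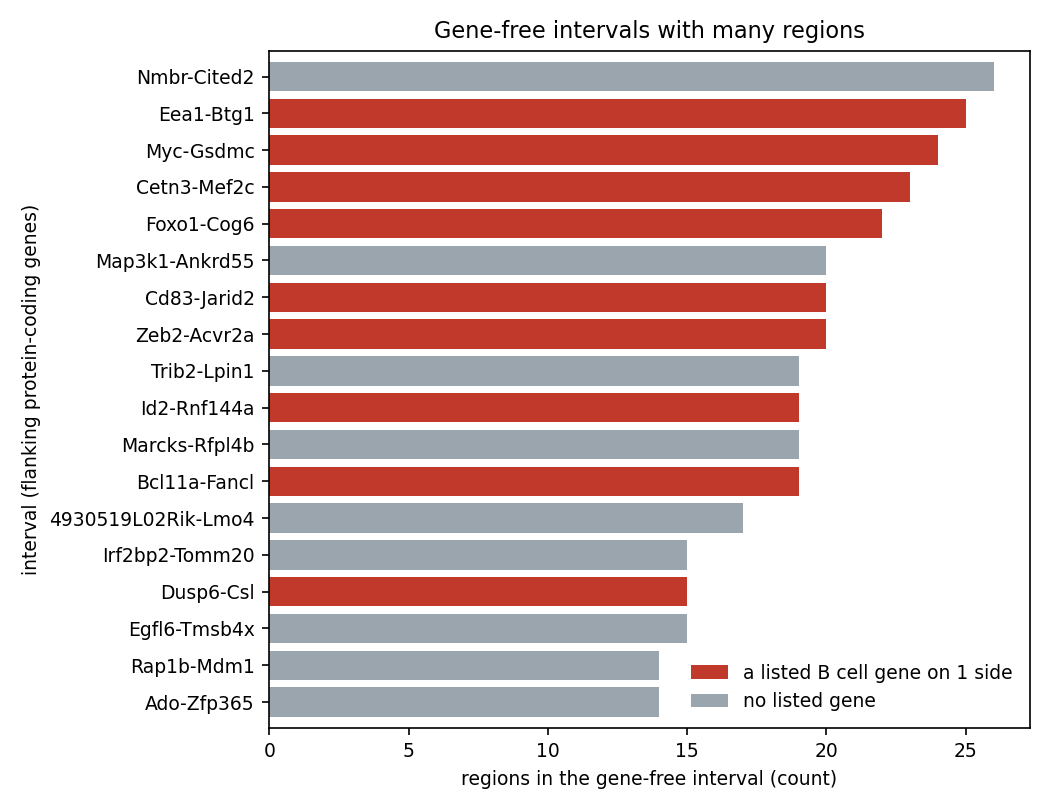
Number of distal regions (horizontal axis) in 18 of the 20 gene-free gaps that hold most, each named by its flanking genes (vertical axis). Red bars have a gene of the B cell lists on a side, grey bars have none, and the bars run from 14 to the 26 of Nmbr to Cited2.

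Genes of B lineage transcription factors and of B cell receptors and signalling stood beside many of the fullest gaps. A gene of these lists, 148 genes or 0.676% of protein-coding genes, was the nearest gene on a side of 528 distal regions (19.2%), against 490 of the 6563 other intergenic regions (7.47%). The nearest gene of all was a listed one in 355. Of 86 gaps with a listed gene, 68 (79.1%) held a distal region, against 720 of 2881 others (24.99%). The gaps with a listed gene held 14.6 regions per Mb and the others 2.29, and 24 of the 61 gaps with 10 regions or more had such a gene. The median lowest percentile was 40.98 for regions beside a factor gene and 40.6 for the rest. Other lists gave smaller differences. Neural adhesion and synapse genes flanked 91 distal regions (3.31%, against 2.33% of other intergenic regions), homeobox and developmental factors 96 (3.49% against 1.87%) and chemosensory receptors 40 (1.45% against 1.54%). These counts are descriptions, since neighbouring regions share a gap and a gene.

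Transcription factor genes flanked 295 distal regions (10.7%, against 3.21% of other intergenic regions), and 30 of the 65 genes of the list were involved. Myc, the growth regulator, flanked 30 regions, 24 of them in the gap to Gsdmc. The strongest of these, chr15:62168857-62170293, lay 179 kb from Myc, inside the lncRNA gene Pvt1 (chr15:62037986-62260215), which overlapped 6 of the regions. It stood at 98.2, 99.6 and 99.1 untreated and 97.3, 99.2 and 99.7 DTx, near the top of each list. In that gap 16 regions lay 67.3 to 467 kb from Myc and 4 lay 1621 to 1677 kb from it. The rest lay between these groups, at 708, 817, 834 and 1381 kb, with lowest percentiles of 3.26, 22.1, 74.5 and 13.7. A distant group of Myc enhancers of blood cells is known far downstream of the gene. The 4 far regions had median list percentiles of 58.7, 54.4 and 60.9 untreated and 57.1, 58.8 and 60.0 DTx, in the middle of each list.

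Mef2c flanked 25 regions, of which 15 lay 391.8 to 611 kb from it on the side of Cetn3. Their median list percentiles were 76.8, 77.0 and 80.9 untreated and 78.9, 83.3 and 80.5 DTx. Foxo1, which drives early B cell development and the recombinase genes, flanked 24. The strongest, chr3:52443751-52444750 at 94.1 kb, stood at 95.7, 97.6 and 99.0 untreated and 98.5, 99.0 and 99.5 DTx, high in each list. Bcl11a, a factor of lymphoid development, flanked 23 regions, weaker as a group, with a median lowest percentile of 29.9 against 61.6 beside Mef2c and 59.7 beside Foxo1. Zeb2 flanked 20 and Id2, which encodes an inhibitor of E proteins, 19. Ebf1, Satb1 and Jun flanked 14 each, Klf4 and the E protein gene Tcf4 13 each, Sox4 12, Lef1 and Ets1 10 each, and Prdm1, the plasma cell regulator, 9. The strongest region beside Ets1, chr9:33482860-33484038 at 726 kb, stood at 97.4, 96.3 and 98.2 untreated and 97.8, 97.3 and 97.6 DTx. The 7 regions beside Runx1 were the weakest such group with at least 5 regions, with a median lowest percentile of 6.63, a choice made after the values were seen.

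**Figure D4:**
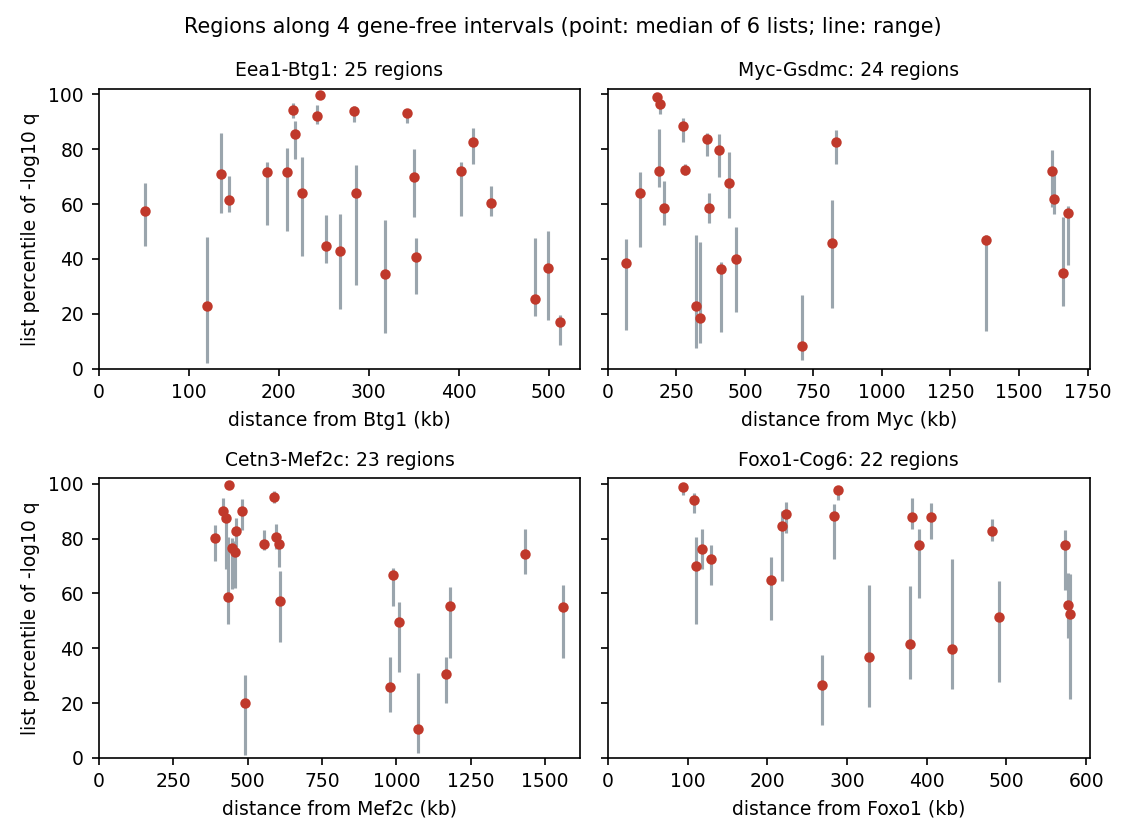
Distal regions along 4 gene-free gaps, by distance from Btg1, Myc, Mef2c or Foxo1 (horizontal axis, kb) and list percentile of −log10 q (vertical axis), with a point at the median of the 6 lists and a line over their range. The gap beside Btg1 has 25 regions and that beside Foxo1 has 22. Myc has 16 within 467 kb, 4 beyond 1621 kb and the rest at 708 to 1381 kb. Mef2c has 15 between 391.8 and 611 kb.

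Genes of receptors, adhesion and signalling flanked 240 distal regions (8.73%, against 4.28% of other intergenic regions). Btg1 led with 31, and 24 of them formed the largest cluster of the set. Cd83, a surface protein of activated B cells and dendritic cells, flanked 21. The strongest beside Cd83, chr13:43864337-43865019 at 61.5 kb, stood at 91.5, 93.9 and 96.4 untreated and 89.6, 94.6 and 95.5 DTx. Dusp6, a phosphatase of ERK, and Tnfaip3, the brake on NF-kB known as A20, flanked 15 each, and Cd24a, a surface protein of immature B cells, 13. Cxcr4, the chemokine receptor that keeps cells in bone marrow, flanked 11. Its strongest region, chr1:128704915-128705639 at 113 kb, stood at 97.3, 99.1 and 98.9 untreated and 98.7, 99.4 and 99.8 DTx. S1pr1, the receptor for exit from lymphoid tissue, flanked 9. The genes of the sort markers were among these as well. Ptprc, whose B cell isoform is B220, flanked 6, with the strongest at 85.2 or above, and Cd93 flanked 6, with the strongest at 50.3 or above.

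Some of the fullest gaps had no listed gene. Map3k1 to Ankrd55 held 20 regions in 370 kb of usable space (54.0 per Mb), Trib2 to Lpin1 19, Marcks to Rfpl4b 19 and Irf2bp2 to Tomm20 15. The 15 regions beside Irf2bp2 had median list percentiles of 62.0, 74.5 and 74.7 untreated and 71.2, 77.6 and 86.6 DTx. Rap1b to Mdm1 held 14 in 196 kb, 71.6 per Mb. Chromosome 10, which carries the gaps of Nmbr, Btg1, Marcks, Dusp6 and Rap1b, held 314 distal regions (11.4%), against 6.19% of other intergenic regions.

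Neighbouring distal regions ran in clusters. Grouped where the gap between neighbours was at most 50 kb with no protein-coding gene between, 2086 regions (75.9%) fell into 557 clusters and 664 stood alone. Neighbours in the same gene-free gap lay 16.8 kb apart at the median, with quartiles of 7.24 and 43.1 kb. There were 246 clusters of 2, 129 of 5 or more and 31 of 10 or more. Regions in clusters of 5 or more had a median lowest percentile of 45.2, against 33.9 for those alone. The largest cluster, chr10:96104338-96497930 beside Btg1, held 24 regions over 394 kb, with lowest percentiles from 2.21 to 99.6. Within clusters, strong and weak regions thus stood side by side. Other large clusters were Trib2 to Lpin1 with 16 regions, Irf2bp2 to Tomm20 and Map3k1 to Ankrd55 with 15, Rap1b to Mdm1 with 14, Olfr1324 to Stk26 with 13 and Klf14 to Mkln1 with 12. The cluster beside Map3k1 was compact, 15 regions in 113 kb, and that between Olfr1324 and Stk26 more so, 13 regions in 73.8 kb.

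Several clusters lay in lncRNA genes. In all, 746 distal regions (27.1%) overlapped a lncRNA gene, against 21.1% of other intergenic regions, while 280 (10.2%) came within 1 kb of a lncRNA gene's end, against 11.9%. Those 280 had a median lowest percentile of 46.0 and a median width of 893 bp, against 39.7 and 802 bp for the rest. The lncRNA genes that overlapped 8 regions or more, a limit set after the counts were seen, were A930011G23Rik and Firre with 12 each, Gm32543 with 11, 2610307P16Rik and Gm30382 with 10 each, Morrbid with 9 and Lncpint with 8.

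Firre, on the X chromosome at chrX:50563120-50635321, is known for repeats that bind CTCF and for a role in nuclear organisation. Its 12 regions had lowest percentiles from 4.40 to 47.0. The strongest, chrX:50614280-50615216, stood at 60.3, 57.3 and 47.0 untreated and 61.0, 65.2 and 64.9 DTx. A930011G23Rik, between Rasgef1b and Vamp9, held a region at chr5:99335990-99337034 with 98.1, 99.0 and 99.7 untreated and 99.8, 98.7 and 99.4 DTx. The 2 genes with 12 regions thus differed in strength, with median lowest percentiles of 28.7 and 60.7. Morrbid, known to control the neighbouring death gene Bcl2l11, held its strongest region at chr2:128325315-128325865, at 85.0, 82.5 and 81.5 untreated and 81.4, 87.4 and 90.4 DTx. Lncpint, a target of p53, held its strongest at chr6:31125139-31126916, at 70.5, 77.9 and 81.4 untreated and 74.7, 84.3 and 88.8 DTx. Gene ends of any non-coding type lay within 1 kb of 369 regions (13.4%, against 16.0%). The count was 197 for ends inside the region and 775 within 5 kb.

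The antigen receptor loci, whose gene segments are not counted as protein-coding genes in the annotation, held 71 distal regions (2.58%). The immunoglobulin kappa locus held 45, the heavy chain locus 13 and the lambda locus 11. The T cell receptor beta and gamma loci held 1 each and the alpha and delta loci 0. B cells rearrange the immunoglobulin loci and T cells the T cell receptor loci. The loci differ in length, and the space in each over 50 kb from a protein-coding gene was not measured, so these counts are not compared. Of the 45 kappa regions, 31 lay within 1 kb of a V segment end, with a median lowest percentile of 30.8 against 33.9 for the other 14. The strongest kappa region, chr6:70709249-70710001, lay 5.07 kb past Igkv3-1 and 12.6 kb before Igkj1, in the stretch between the V and J segments that is known to hold CTCF-bound elements. It stood at 90.9, 95.4 and 93.4 untreated and 87.7, 96.6 and 97.4 DTx. The second, chr6:69499898-69500907, stood at 66.4 to 77.7 over the 6 lists, so that the region before the J segments stood apart in each list. The kappa enhancers downstream of it lie within 50 kb of a protein-coding gene and fall outside the rule.

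Within 1 kb of a microRNA gene's end lay 2 distal regions (0.0727%), against 20 other intergenic regions (0.305%), so such genes were rarer beside distal regions. MicroRNA genes lay within 10 kb of 20 distal regions, with no share of other regions given at that distance. These were 17 genes in all, of which each matched an entry of the RefSeq table (GRCm38.p6). Their 24 mature sequences had 24 different seeds, so none shared a seed. A sequence is printed 5′ to 3′, with the seed, bases 2 to 8, in capitals, for each of the genes with the strongest regions and of those inside or under 2 kb from a region.
mmu-miR-6363: uGUAGACUggacuguccucaaa
mmu-miR-3089-5p: uGAGUUCAgggacagcgugucu
mmu-miR-101a-3p: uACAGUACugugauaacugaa
mmu-miR-6380: uGUAAGUGcuuuuaacugcugagc
mmu-miR-9-5p: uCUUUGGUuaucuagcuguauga
mmu-miR-9b-3p: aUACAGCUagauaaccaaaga
mmu-miR-6372: aGAACUGGggaaacuuccagccu
mmu-miR-125b-5p: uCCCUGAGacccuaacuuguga

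Mir6363 lay 4.91 kb from chr16:50732152-50733089, a region that also holds the start of the lncRNA Dubr, at 89.0, 88.1 and 89.7 untreated and 89.5, 92.3 and 91.9 DTx. Mir3089 lay 8.63 kb from chr2:30711668-30712578, at 89.6, 93.2 and 93.3 untreated and 85.7, 93.0 and 95.6 DTx. A nearer region, 1.90 kb from Mir3089, was weaker, with a lowest percentile of 21.1. Mir101a, one of the copies of the miR-101 family, lies beside Jak1, a kinase of cytokine receptors. It was 9.08 kb from chr4:101356102-101357915, at 80.1, 83.5 and 93.2 untreated and 91.5, 87.1 and 85.4 DTx, while a nearer region at 3.86 kb had a lowest percentile of 17.3. Mir6380 lay 7.88 kb from chr3:137774967-137775653, at 74.1, 82.5 and 75.4 untreated and 76.8, 81.3 and 85.1 DTx. Mir9-2, a gene of the neural miR-9 family, and Gm51268, which encodes miR-9b on the opposite strand, lay inside chr13:83737703-83739598, in the gap between Mef2c and Tmem161b. That region stood at 51.2, 30.8 and 54.7 untreated and 67.1, 58.1 and 60.7 DTx, all 3 DTx list percentiles above all 3 untreated ones, though list percentiles also move with the length of the list and the test between groups, given next, made no call. Mir6372 lay 0.743 kb from chr11:26200708-26201497, in the gap between Bcl11a and Fancl, which stood at 61.6, 34.7 and 64.9 untreated and 71.8, 60.6 and 67.1 DTx, with groups that overlap. Mir125b-2, of a family active in blood stem cells, lay 1.54 kb from chr16:77643942-77644734, which stood at 14.1 to 36.4 over the lists, in their lower part.

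No distal region passed the test between untreated and DTx libraries. With the mode of the list as a covariate, limma on the shared-region percentile called 0 of the 2750 higher and 0 lower in DTx at a Benjamini-Hochberg adjusted p under 0.05, adjusted over all 30954 shared regions, of which 0% were called in each direction. At an unadjusted p under 0.05, 62 were higher (2.25%, against 2.18% of all shared regions) and 29 lower (1.05%, against 1.98%). The count of 91 went from 48 without DTx replicate 3 to 159 without untreated replicate 1. All 3 DTx values lay above all 3 untreated ones in 129 distal regions (4.69%, against 3.97% of all shared regions) and below them in 96 (3.49%, against 4.77%). The median difference over the distal regions was 0.28 percentile points, with quartiles of -3.30 and 4.40 and a median standard error of 6.18. That median was -1.02 without untreated replicate 3, without DTx replicate 1 or in the broad-mode lists, and 1.28 without untreated replicate 1, so its sign rested on single libraries.

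Over the whole set the difference between the groups was smaller than the spread of the libraries. The medians by library given above averaged 35.2 ± 2.06 untreated and 35.6 ± 2.096 DTx (SD, n = 3 each), a difference of 0.362 points (exact two-sided permutation p = 0.7, where the smallest p is 0.1). The difference was 4.56 points between the narrow-mode lists and -1.74 between the broad-mode lists, so its direction rested on the narrow-mode pair: without untreated replicate 3 it was -0.555 and without DTx replicate 1 it was -0.821. The width that a library's peaks cover in a region was 508, 550 and 692 bp at the median in untreated libraries 1 to 3 and 550, 634 and 644.5 bp in the DTx libraries. The means were 583 ± 96.4 and 610 ± 51.8 bp (SD, n = 3 each, exact two-sided permutation p = 0.9), and the difference of 26.2 bp became -11.5 bp without untreated replicate 1. Covered width was larger in DTx in the broad mode, by 110 bp, and -142 bp in the narrow mode.

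The regions with the lowest p in each direction are described by their values. The region chr6:51170523-51171233, between Npvf and Gm38821, stood at shared-region percentiles of 18.5, 32.0 and 6.40 untreated and 37.7, 46.4 and 66.0 DTx. The groups do not overlap there, and the difference was 31.1 ± 7.76 points (standard error, limma adjusted p = 0.966). The region chr1:164652190-164652718, between Atp1b1 and Dpt, stood at 61.5, 65.0 and 51.7 untreated and 71.0, 73.5 and 83.0 DTx. The region chr4:47818864-47819416, 226 kb from Nr4a3, a factor induced by antigen receptor signals, stood at 0.519, 11.8 and 9.02 untreated and 28.1, 19.97 and 39.1 DTx. In the other direction, chr3:61670705-61671483 between Rap2b and Arhgef26 stood at 48.2, 44.6 and 27.6 untreated and 12.9, 4.24 and 18.6 DTx, a difference of -28.3 ± 7.48 points. The region chr9:83321541-83322458, near Lca5, stood at 18.5, 12.8 and 20.4 untreated and 3.46, 3.47 and 1.304 DTx. The groups were separate in these 5 regions. The region chr11:109011643-109012115, 61.1 kb from Axin2, a target of Wnt signalling, stood at 97.2, 97.3 and 83.9 untreated and 76.5, 93.3 and 91.7 DTx, with groups that overlap. The limma adjusted p was 0.966 for each of the 6 regions.

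**Figure D5:**
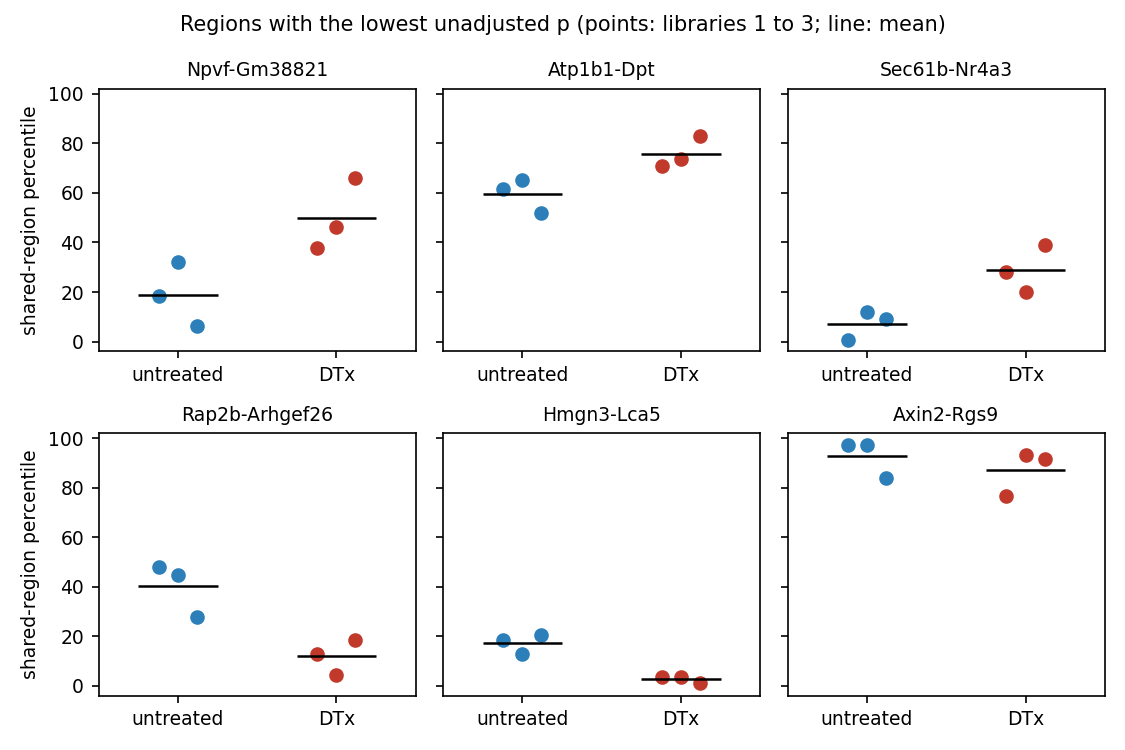
Shared-region percentile (vertical axis) of the 3 distal regions with the lowest unadjusted p in each direction, named by their flanking genes, in the untreated and DTx libraries (points, replicates 1 to 3 from left to right, with a line at the mean). The groups do not overlap in 5 of the 6 panels, and the adjusted p is 0.966 in each.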

How the data were processed

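The submitters' processing notes name Trim Galore 0.4.3 for trimming, Bowtie2 2.3.2, MACS2 2.1.1 and the mm10 build. No source used here states a read shift for the Tn5 cut or duplicate removal. The authors deposited a peak list for each library. Per the file headers, each peak has a pileup (coverage signal) and a fold enrichment (a ratio). The deposited −log10 p-value and −log10 q-value columns have damaged headers and were told apart by column order and range. These values are the authors' own and were used only to describe and rank peaks within a list.

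Autosomal, X and Y peaks were merged at an overlap of at least 1 bp, and 2 mitochondrial peaks per list were left out. Genes came from the RefSeq table of GRCm38.p6, the same build as mm10, which gives no strand and no exons, so exons and introns were not told apart. A region's value in a library is the −log10 q of its strongest peak, as a percentile among all peaks of the list or among the regions called in all 6 lists. The second kind was fitted with limma 3.58.1 (trend and robust, R 4.3.3) on group and list mode, after a check on simulated data. Medians per library were compared by exact permutation, and paired classes by exact sign flips (Python 3.11.15, NumPy 2.4.6, pandas 2.3.3, SciPy 1.17.1).

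The regions, gene lists and motifs were chosen with earlier results of these data known, so counts over them support nothing independently. Some items that the rule selects are not reported here. By rule the text names the 12 strongest and 3 weakest regions by lowest list percentile, the 8 largest clusters, the strongest region per listed factor gene, regions within 10 kb of a microRNA gene (up to 8, by lowest percentile), 3 regions per direction by p, the 3 farthest from genes and those beside each limit. Other regions and genes were named after their values were seen: the best regions of the other flanking genes and of lncRNA genes, the kappa region and the microRNA genes inside or under 2 kb from a region. Sequences of the regions themselves were not read, since no genome of this build was used here, and motifs were searched in RefSeq promoter windows instead. Alternatives were other limits, peak measures, scales and covariates, and each library left out.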

Additional observations from a re-analysis of the deposited data

How the results depend on the processing

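The number of distal regions was 4284 at over 25 kb from genes, 1508 at over 100 kb and 1684 with peaks of −log10 q of at least 5. That last cut does not weigh alike on the lists. The median −log10 q over distal regions was 6.65 and 9.73 in untreated replicates 1 and 2 and 13.7 and 18.2 in DTx replicates 2 and 3 (broad mode). It was 56.1 in untreated replicate 3 and 34.0 in DTx replicate 1 (narrow mode). The number of distal regions stayed within 1.5 times of 2750 under the other alternatives. The count was 2047 in equal-length lists, 2611 with a coverage of at least 25%, 2781 in broad-mode lists only and 2896 at any width. With any library left out it was 2729 to 3096. The difference in median percentile between DTx and untreated changed sign with pileup in place of −log10 q (-0.0547) and in the broad-mode lists (-1.74), and ran from -0.821 to 1.48 as each library was left out. The size of the difference from regions inside genes depended on the measure. It was -1.95 with fold enrichment, -3.01 when ranked among all peaks of the list and -4.90 with pileup. That from gene-end regions was -18.7, -26.2 and -40.1 in the same order. In the broad-mode lists the differences were -4.33 and -37.3. As each library was left out they ran from -4.45 to -3.63 and from -38.3 to -36.8. With fewer libraries they no longer passed 0.05, by construction, since 5 libraries allow no p below 0.0625 and 4 none below 0.125. The difference in covered width ran from -11.5 to 80.5 bp as each library was left out. Regions at a non-coding gene end numbered 197 with a window of 0 kb and 775 with 5 kb. limma called 0 distal regions in each direction under each alternative. On normal scores it called 1 shared region, lower in DTx and not a distal region.

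The labels number the libraries in both groups, but the numbers share no stated source and the deviations of same-numbered libraries correlated at 0.187, 0.0583 and -0.0751, so they were not taken as pairs. With the replicate block limma again called 0 regions in each direction, with 90 distal regions at an unadjusted p under 0.05, and the paired differences were 0.362 points and 26.2 bp (exact sign-flip permutation p = 0.75 for each, over 3 pairs). Leaving out the antigen receptor loci, an alternative chosen after seeing the data, left 2027 regions in clusters and changed no direction or call. Unknown depth limits what a list could call, and a weak region missing from a list may be open below the threshold.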

Other observations

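Large gene-free stretches without any distal region were common. Of 257 gaps with over 1000 kb of usable space, 154 held none, and the widest of these was Pcdh20 to Pcdh9 on chromosome 14, with 4442 kb, between genes of neural adhesion proteins. Another 323 gaps held a single region. Chromosome 3 held 210 distal regions (7.64%, against 5.68% of other intergenic regions), chromosome 13 held 214 (7.78% against 5.17%), and chromosome 7 held 93 (3.38% against 5.94%).

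The position of a peak's summit is given in untreated replicate 3 and DTx replicate 1 only. In these lists the summits of the strongest peak in a distal region lay 18 bp apart at the median, and within 50 bp in 2143 of the 2750 regions (77.9%). The median was 15 bp in other intergenic and 15 bp in gene-end regions, with 79.5% and 77.5% within 50 bp. Distal regions were covered by at least 2 separate peaks in 132 and 122 cases in the narrow-mode lists and in 6 to 53 cases in the broad-mode lists.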
